A study of Mus musculus with 36 samples.

Results

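The 10 genes described here are readouts commonly used to type macrophage activation: Acod1 and Nos2 on the classical side, Arg1, Mrc1, Chil3, Retnla, Mgl2 and Clec10a on the alternative side, and the formyl peptide receptor genes Fpr1 and Fpr2. They were taken by symbol from tables of 40354 genes, and all 10 were present. Classical activation is the response of macrophages to microbial products such as lipopolysaccharide (LPS) and to interferon-gamma. Alternative activation is the response to interleukin-4 and interleukin-13, which signal through STAT6. The enzymes encoded by Nos2 and Arg1 use the same amino acid, arginine, to make nitric oxide or urea and ornithine, and the expression of one over the other is the textbook mark of the 2 states.

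The libraries came from a study of the transdifferentiation of B cells into macrophages (BMT), in which the transcription factor C/EBPα turns committed B lineage cells into macrophage-like cells. Primary bone marrow B cells of C57BL/6J mice were infected with a retrovirus that carries C/EBPα fused to the hormone binding domain of the estrogen receptor together with a human CD4 (hCD4) reporter, and hCD4+ cells were cultured on inactivated mouse embryonic fibroblasts. Estradiol (E2) then moved the fusion protein into the nucleus. All 18 groups carried a C/EBPα-ER construct, either the wild-type form (WT) or a form with arginine 35 replaced by alanine (R35A) or by lysine (R35K). Each construct was sampled at 0 (before E2), 1, 3, 6, 18 and 120 hours post-induction (hpi), with 2 libraries per group and 36 libraries in all. The medium held interleukin-7, interleukin-3, FLT-3 ligand, stem cell factor and CSF-1, the macrophage growth factor, and every 2 days it was replaced by medium lacking interleukin-7. No group was kept without E2 past 0 hpi, so that induction, time in culture and change of medium cannot be told apart. Neither LPS, interferon-gamma, interleukin-4 nor interleukin-13 was named among the additions. Each library is therefore a bulk sample of hCD4+ cells that express an added transcription factor from a retroviral promoter on a feeder layer, so fewer cells of a type and less RNA per cell cannot be told apart. WT and R35A libraries were deposited in 1 set of tables and R35K libraries in another, so that for R35K the construct and the deposit cannot be told apart.

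Total counts per library ran from 13044456 to 23131776. Levels are given as counts per 1000000 (CPM) over library sizes scaled by the trimmed mean of M values (TMM), and per kilobase of exon where different genes are compared. Summed markers of macrophages went from between 66.3 and 73.4 CPM at 0 hpi to between 18351.1 and 29739.8 CPM at 120 hpi, and summed B cell markers from between 3386.2 and 3718.9 to between 63.7 and 138.0 CPM, so that both ends of the time axis carried the markers of their labelled cells. Markers of the fibroblast feeders summed to between 1233.7 and 1330.2 CPM at 0 hpi, to between 1722.7 and 3284.2 CPM from 1 to 18 hpi, and to between 131.0 and 475.3 CPM at 120 hpi. None of the 8 fibroblast markers was at or under 3 counts in both libraries of a group up to 18 hpi, Lum was at 0 in all constructs at 120 hpi, and their part in the results was not tested. The study's methods call the 2 libraries of a group biological replicates, and neither they nor the labels say whether these were separate cultures or animals, so the p-values measure only the spread between these samples.

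A gene was called when its fitted change was at least 1.5-fold and its p, adjusted by Benjamini-Hochberg over all genes tested, was at most 0.05 in edgeR's quasi-likelihood test. Every adjusted p in the text comes from that test. Retnla did not reach the count needed for testing in any fit, and 9 members were tested. Where a group had 3 counts or fewer in both libraries, folds are given only as bounds against 3 counts per library, since the fitted change of such a gene depends on the prior count of the model.

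The members did not behave as a block. Acod1 and Fpr2 were near 0 before induction, and within 1 hour the mutant libraries held 30.4 to 33.9 CPM of Acod1 and 8.03 to 9.43 CPM of Fpr2, against at most 3.04 and 0.460 CPM in WT. Mrc1, Clec10a, Mgl2 and Fpr1 had most of their level at 120 hpi. Arg1 separated R35A from WT most at 18 hpi and R35K from WT most at 6 hpi, while Nos2 stayed under 2 CPM, and Chil3 was lost within 1 hour in all constructs. Retnla was close to 0 throughout.

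**Figure D1:**
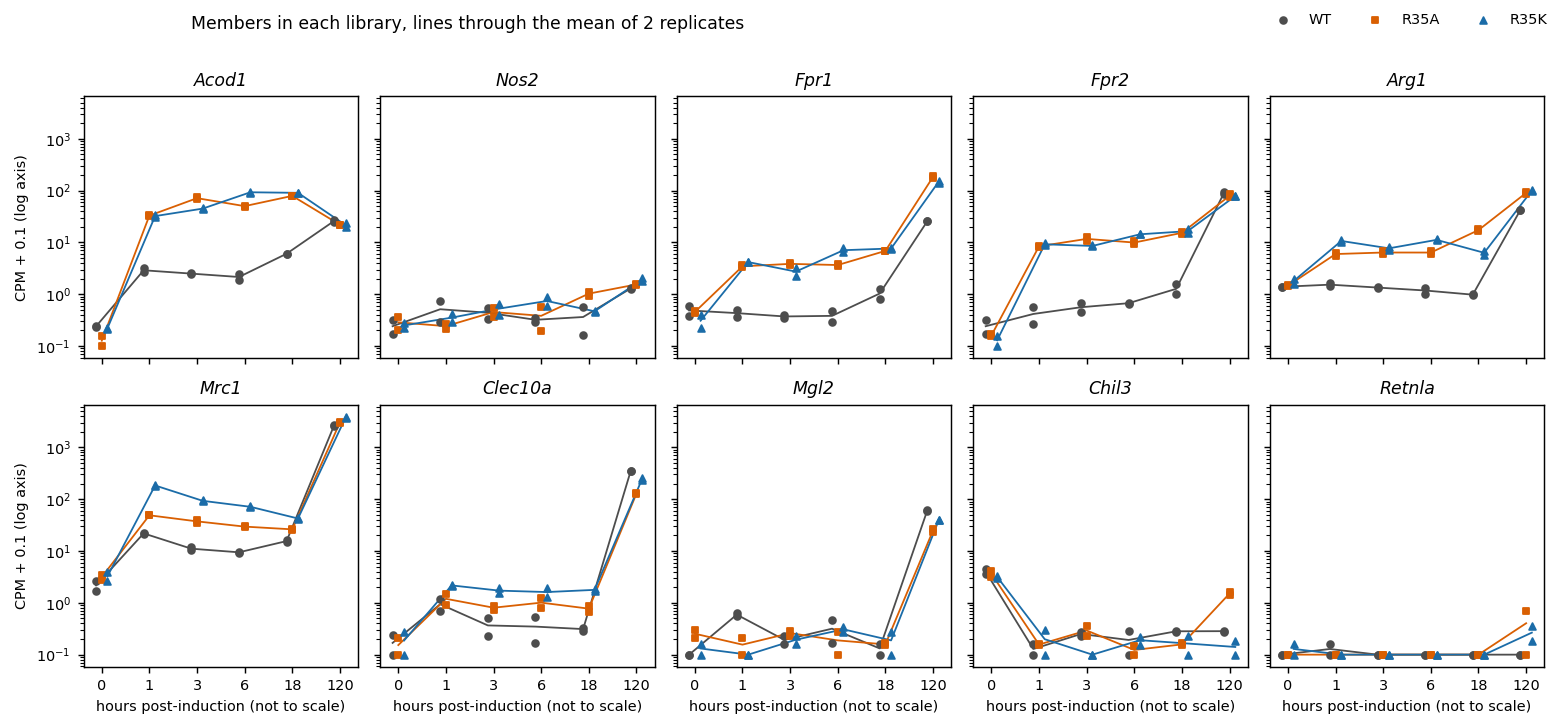
Levels of the 10 genes by hours post-induction, 1 panel per gene, in CPM with 0.1 added on a log axis shared by all panels. Points are the 2 libraries of each group and lines join the group means of WT, R35A and R35K, and the Acod1 and Fpr2 lines of the mutants leave the WT line at 1 hpi and meet it at 120 hpi.

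By the GENCODE vM21 annotation of the mouse genome build GRCm38, Acod1 has 5 exons at chr14:103046977-103056573 and Nos2 has 29 at chr11:78920787-78960254. Arg1 lies at chr10:24915221-24927484, Mrc1 at chr2:14229392-14332057, Chil3 at chr3:106147554-106167564 and Retnla at chr16:48842551-48844461. The lectin genes Mgl2 (chr11:70130329-70137550) and Clec10a (chr11:70156197-70170834) are neighbours, as are Fpr1 (chr17:17876471-17883940, minus strand) and Fpr2 (chr17:17887824-17893952, plus strand). Sharing of sequence bears on how reads could be assigned. Of the 50-base windows of the exons, 31.5% in Fpr2 also occur in Fpr1, Fpr3 or Gm5966, and 26.9% in Chil3 occur in Chil4 or Gm6522. Of those in Mgl2 13.1% occur in other genes, Clec10a among them, and of those in Clec10a 9.02%, with Mgl2 among them. The share was 0.0784% in Fpr1 and 0 in Acod1, Nos2, Arg1, Mrc1 and Retnla. Levels of Fpr2, Chil3, Mgl2 and Clec10a carry that uncertainty. Chil4 had at most 2 counts in any library, and Fpr-rs3 had 0 in all 36.

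Promoter sequences ending at the base before the annotated start were taken from RefSeq (build GRCm38.p6) for 7 of the 10 members. They are shown for the genes that split the constructs early (Acod1, Fpr1, Fpr2 and Mrc1) and for the nearly silent Retnla. Capitals mark matches, on either strand, to the C/EBP letters TTGCNNAA, the PU.1 letters GAGGAA, the GAS element TTCNNNGAA, the STAT6 letters (TTC and GAA with 4 bases between them), the interferon response letters (GAAA and GAAA with 2 bases between them) or the NF-kB letters (GGGA and TTCC with 2 bases between them). The regions are chr14:103046762-103046976 for Acod1, chr17:17887574-17887823 for Fpr2, chr17:17883941-17884189 (minus strand) for Fpr1, chr2:14229164-14229391 for Mrc1 and chr16:48842359-48842550 for Retnla, all printed 5′ to 3′ on the strand of the gene.
Acod1 promoter: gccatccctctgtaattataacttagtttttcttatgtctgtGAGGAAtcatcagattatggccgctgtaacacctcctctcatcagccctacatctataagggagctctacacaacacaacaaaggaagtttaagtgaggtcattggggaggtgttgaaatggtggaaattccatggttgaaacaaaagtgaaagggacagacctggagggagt
Fpr2 promoter: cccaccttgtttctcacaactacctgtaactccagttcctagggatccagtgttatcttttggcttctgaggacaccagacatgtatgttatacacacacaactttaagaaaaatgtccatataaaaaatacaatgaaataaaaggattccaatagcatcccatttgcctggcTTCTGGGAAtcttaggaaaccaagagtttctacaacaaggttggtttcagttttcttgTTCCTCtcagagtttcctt
Fpr1 promoter: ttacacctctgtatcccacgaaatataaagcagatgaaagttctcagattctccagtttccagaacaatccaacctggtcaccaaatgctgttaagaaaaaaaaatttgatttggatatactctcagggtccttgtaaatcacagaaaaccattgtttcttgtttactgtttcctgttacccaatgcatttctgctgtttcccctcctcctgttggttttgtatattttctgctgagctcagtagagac
Mrc1 promoter: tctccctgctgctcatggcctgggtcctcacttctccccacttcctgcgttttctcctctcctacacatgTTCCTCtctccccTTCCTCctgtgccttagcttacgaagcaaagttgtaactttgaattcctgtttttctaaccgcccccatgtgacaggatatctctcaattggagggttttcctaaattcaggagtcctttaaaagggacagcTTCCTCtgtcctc
Retnla promoter: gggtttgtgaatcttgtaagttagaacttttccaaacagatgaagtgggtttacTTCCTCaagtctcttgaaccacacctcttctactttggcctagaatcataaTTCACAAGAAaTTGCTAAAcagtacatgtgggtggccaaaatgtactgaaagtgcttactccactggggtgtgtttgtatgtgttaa
The Acod1 window held 1 PU.1 match and the Mrc1 window held 3. The Fpr2 window held a GAS match and, closer to the start, a PU.1 match, whereas no letters searched for were found in the neighbouring Fpr1 window. Retnla had the one C/EBP match among these windows, beside a STAT6 match and a PU.1 match. Over the 250 bases before the start of 32851 promoters, the PU.1 letters were found in 23.3%, the C/EBP letters in 9.56%, GAS in 7.02%, STAT6 in 5.85%, the interferon response letters in 2.98% and NF-kB in 1.21%. The windows of the members were 192 to 250 bases long, and the matches are a description of letters only.

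Acod1 encodes the mitochondrial enzyme that makes itaconate in activated macrophages. At 0 hpi no library held more than 2 counts. In WT cells the 2 libraries then measured 2.56 and 3.04 CPM at 1 hpi, 2.42 and 2.38 at 3 hpi, 1.77 and 2.33 at 6 hpi, 5.93 and 5.96 at 18 hpi, and 25.1 and 26.7 at 120 hpi. In R35A cells they measured 33.9 and 31.7 CPM at 1 hpi, 74.3 and 68.4 at 3 hpi, 49.2 and 50.9 at 6 hpi, 79.1 and 78.8 at 18 hpi, and 21.8 and 21.9 at 120 hpi. The R35A level was above its own 120 hpi level from the first hour. In R35K cells they measured 30.4 and 33.8 CPM at 1 hpi, 45.3 and 44.4 at 3 hpi, 95.5 and 90.0 at 6 hpi, 91.0 and 89.9 at 18 hpi, and 19.4 and 23.4 at 120 hpi. Both mutants lay above every WT library from 1 to 18 hpi and below both WT libraries at 120 hpi.

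Against 0 hpi, Acod1 was at least 176.5-fold higher in R35K and at least 181.2-fold higher in R35A cells at 1 hpi, and at least 13.3-fold higher in WT cells. The ratio of R35A to WT was 11.7-fold at 1 hpi (log2 3.50, SE 0.11, adjusted p = 2.79e-31) and 29.7-fold at 3 hpi (log2 4.87, SE 0.10, adjusted p = 5e-39). For R35K the ratio to WT was widest at 6 hpi, at 45.2-fold (log2 5.49, SE 0.10, adjusted p = 9.84e-45). The 2 mutants had different courses between these times. R35K cells had less Acod1 than R35A cells at 3 hpi (log2 -0.67, SE 0.059, adjusted p = 7.61e-14) and more at 6 hpi (log2 0.89, SE 0.056, adjusted p = 1.17e-19), and no difference was called at 1, 18 or 120 hpi.

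The late course of Acod1 ran in opposite directions. From 18 to 120 hpi it rose 4.35-fold in WT cells (log2 2.0, SE 0.11, adjusted p = 6.36e-23), and it fell by 1.96 on the log2 scale in R35A (SE 0.070, adjusted p = 3.31e-30) and fell by 2.13 in R35K (SE 0.071, adjusted p = 4.67e-24). No test was made of the difference between these changes. At 18 hpi the mutants held 362.4% (R35A) and 422.4% (R35K) of their 120 hpi level, against 23.0% in WT. At 120 hpi neither mutant was called different from WT, with log2 differences of -0.24 (SE 0.088) for R35A and -0.27 (SE 0.088) for R35K. Acod1 was the one member with its highest mean before 120 hpi in the mutants, at 18 hpi in R35A and 6 hpi in R35K, in both the CPM and the deposited log2 values, apart from Chil3, which was highest at 0 hpi.

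Nos2, the inducible nitric oxide synthase, stayed low in all groups. Counts at 0 hpi were 1 and 3 in WT, 4 and 2 in R35A, and 3 and 2 in R35K. At 120 hpi they were 14 and 12 in WT, 17 and 19 in R35A, and 20 and 24 in R35K, or 1.24 and 1.15, 1.45 and 1.44, and 1.67 and 1.95 CPM. The 120 hpi libraries lay above all 0 hpi libraries, and the constructs were ordered without overlap. The change from 0 hpi was called in WT (log2 2.90, SE 0.69, adjusted p = 0.000186), R35A (log2 2.84, SE 0.58, adjusted p = 2.1e-05) and R35K (log2 3.42, SE 0.51, adjusted p = 2.9e-07), whereas the differences between constructs at 120 hpi were not. Before 120 hpi, calls on Nos2 rested on 20 counts or fewer per library. They were the rise at 18 hpi in R35A (13 and 20 counts) against 0 hpi and against 1 hpi, the rise at 6 hpi in R35K (8 and 14 counts), and 3 differences between constructs. Without the second R35K library at 6 hpi the rise in R35K was lost (adjusted p = 0.0905). The differences of R35A from WT at 18 hpi, of R35K from WT at 6 hpi and of R35K from R35A at 18 hpi were each lost on leaving out 1 library, with adjusted p of 0.112 to 0.253, 0.122 to 0.313 and 0.0687 to 0.233. Per kilobase of exon, Nos2 at 120 hpi had 0.270 CPM in WT, 0.328 in R35A and 0.410 in R35K, and Acod1 had 9.87, 8.32 and 8.15, so that the 2 classical genes stood far apart in level.

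Arg1, the arginase that splits arginine into urea and ornithine, rose in both mutants from 1 hpi and in WT cells only at 120 hpi. In WT cells it measured 1.30 and 1.28 CPM at 0 hpi, 1.31 and 1.55 at 1 hpi, 1.27 and 1.22 at 3 hpi, 1.24 and 0.921 at 6 hpi, 0.893 and 0.868 at 18 hpi, and 42.7 and 41.7 at 120 hpi. In R35A cells it went from 1.34 and 1.38 CPM at 0 hpi to 5.47 and 6.26 at 1 hpi, 5.85 and 6.72 at 3 hpi, 5.91 and 6.64 at 6 hpi, 16.4 and 18.0 at 18 hpi, and 93.8 and 86.5 at 120 hpi. In R35K cells it went from 1.51 and 1.89 CPM to 11.2 and 9.93, 8.19 and 6.99, 11.4 and 10.8, 6.67 and 5.74, and 100.6 and 99.6 at the same hours. WT cells had no called change from 0 hpi until 120 hpi, and from 1 hpi on no mutant library overlapped a WT library. From 1 to 18 hpi Arg1 in WT fell by 0.73 on the log2 scale (SE 0.30, adjusted p = 0.0498), a call that was lost without any 1 of the 4 libraries compared (adjusted p between 0.0604 and 0.248).

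The ratio of R35A to WT was 4.10-fold at 1 hpi (log2 1.98, SE 0.19, adjusted p = 4.86e-13) and 19.5-fold at 18 hpi (log2 4.27, SE 0.16, adjusted p = 8.17e-28), and it was 2.14-fold at 120 hpi (log2 1.1, SE 0.066, adjusted p = 4.04e-20). For R35K it was 7.39-fold at 1 hpi and 2.37-fold at 120 hpi (log2 1.25, SE 0.064, adjusted p = 1.54e-23). The mutants changed places with time. R35K cells had more Arg1 than R35A cells at 1 hpi (log2 0.85, SE 0.12, adjusted p = 3.88e-08) and less at 18 hpi (log2 -1.47, SE 0.11, adjusted p = 4.26e-17), with no call at 120 hpi. From 1 to 18 hpi Arg1 rose in R35A (log2 1.56) and fell by 0.75 on the log2 scale in R35K. Arg1 was one of 2 members, with Fpr1, in which the change from 0 hpi differed from that of WT at all 5 later times in both mutants. On leaving out 1 library, the Arg1 calls at 120 hpi in R35A (adjusted p = 0.0658) and R35K (adjusted p between 0.12 and 0.167) and the Fpr1 call at 18 hpi in R35A (adjusted p = 0.0729) were lost.

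Mrc1 encodes the macrophage mannose receptor, an endocytic lectin of tissue macrophages. It was the most abundant member at 120 hpi, with 29842 and 28646 counts in WT, 34176 and 41300 in R35A, and 44086 and 47805 in R35K, or 2639 and 2737.6, 2915.4 and 3132, and 3681.8 and 3883.6 CPM. At 0 hpi it measured 1.58 and 2.56 CPM in WT, 3.42 and 2.66 in R35A, and 2.55 and 3.78 in R35K. At 1 hpi it measured 22.5 and 21.1 CPM in WT, 49.3 and 48.4 in R35A, and 179.6 and 188.6 in R35K. Before E2 the R35K libraries overlapped those of R35A and WT, and both R35A libraries lay above both WT libraries, a log2 difference of 0.54 that was not called (SE 0.20, adjusted p = 0.412). After 1 hour the constructs were ordered WT, R35A, R35K without overlap.

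The first rise was followed by a lower stretch. Mean levels at 3, 6 and 18 hpi were 11, 9.34 and 15.5 CPM in WT, 37.3, 29.5 and 26.1 in R35A, and 92.9, 71.3 and 42.4 in R35K. Between 1 and 18 hpi Mrc1 fell by 2.11 on the log2 scale in R35K (SE 0.051, adjusted p = 5.92e-26) and by 0.90 in R35A (SE 0.062, adjusted p = 4.79e-17), and the WT difference of -0.52 was under 1.5-fold. R35K exceeded WT 8.44-fold at 1 hpi (log2 3.08, SE 0.06, adjusted p = 2.01e-43), and R35A exceeded WT 2.24-fold (log2 1.12, SE 0.065, adjusted p = 7.74e-21). R35K also exceeded R35A at that time (log2 1.91, SE 0.053, adjusted p = 8.32e-35). At 1 hpi Mrc1 stood at 0.811% of its 120 hpi level in WT, 1.62% in R35A and 4.87% in R35K. The increase from 0 to 120 hpi was 1298.3-fold in WT, 994-fold in R35A and 1194-fold in R35K. At 120 hpi the differences of R35A (log2 0.18, SE 0.04) and R35K (log2 0.49, SE 0.043) from WT were below 1.5-fold.

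Clec10a and Mgl2 encode neighbouring C-type lectins that bind galactose and N-acetylgalactosamine. Clec10a had at most 3 counts in any 0 hpi library. At 1 hpi it had 9 and 19 counts in WT, 25 and 14 in R35A, and 31 and 34 in R35K, and at 18 hpi 3 and 4, 9 and 15, and 30 and 25. At 120 hpi the libraries measured 351.1 and 354.9 CPM in WT, 127.4 and 129.5 in R35A, and 255.6 and 238.8 in R35K. The order of the constructs was thus R35K, R35A, WT at 18 hpi and WT, R35K, R35A at 120 hpi, without overlap at either time.

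At 18 hpi Clec10a was 7.96-fold higher in R35K than in WT (log2 2.94, SE 0.48, adjusted p = 6.02e-07) and 3.18-fold higher in R35A (log2 1.64, SE 0.57, adjusted p = 0.0226). The R35A call at 18 hpi was lost without either WT library or without the second R35A library, with adjusted p between 0.0865 and 0.182. At 120 hpi it was lower in R35A than in WT by 2.75-fold (log2 -1.45, SE 0.058, adjusted p = 5.41e-27), and higher in R35K than in R35A (log2 0.94, SE 0.059, adjusted p = 1.02e-18). The R35K to WT difference at 120 hpi was below the call (log2 -0.51, SE 0.056). The level at 1 hpi was 0.238% of the 120 hpi level in WT, 0.857% in R35A and 0.837% in R35K.

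Mgl2 had 8 and 8 counts in WT cells at 1 hpi and at most 6 counts in every other library before 120 hpi. At 120 hpi it had 698 and 626 counts in WT, 308 and 304 in R35A, and 469 and 483 in R35K, or 61.7 and 59.8, 26.3 and 23.1, and 39.2 and 39.2 CPM. The order WT, R35K, R35A was the same as for Clec10a, again without overlap. Mgl2 was at least 289.4-fold higher at 120 than at 0 hpi in WT, at least 136.3-fold in R35A and at least 215.4-fold in R35K. Against WT at 120 hpi, R35A was lower by 2.46-fold (log2 -1.30, SE 0.09, adjusted p = 2.23e-17) and R35K by 1.55-fold (log2 -0.63, SE 0.091, adjusted p = 6.94e-08). The WT libraries at 1 hpi stood above the floor at which the mutants lay, by at least 2.89-fold against R35A (adjusted p = 0.00181) and 2.58-fold against R35K (adjusted p = 0.000197). Without the second R35A library at 1 hpi the first of these calls was lost (adjusted p = 0.0535). Dendritic cells also carry these lectins. At 120 hpi their summed markers were between 193.0 and 197.5 CPM in WT, 140.8 and 142.9 in R35A, and 137.2 and 141.3 in R35K. These markers did not move together. In each construct 3 of the 8 were at 3 counts or fewer in both libraries at 120 hpi. From 0 to 120 hpi in WT, Itgax (log2 7.16), Flt3 (1.8) and Xcr1 (1.58) rose, and Ccr7 (-4.6) and Zbtb46 (-1.78) fell. The part of dendritic cells in the Clec10a and Mgl2 differences was not tested.

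Chil3 encodes Ym1, a chitinase-like protein of alternatively activated macrophages that neutrophils and their precursors also make. It had 50 and 61 counts in WT, 60 and 57 in R35A, and 56 and 46 in R35K at 0 hpi. One hour later it had 0 and 1, 1 and 1, and 3 and 0 counts. From 3 to 18 hpi no library exceeded 4 counts, so that the gene was lost in all 3 constructs within the first hour. The fall at 1 hpi was at least 21.1-fold in WT, at least 20.7-fold in R35A and at least 16.1-fold in R35K, with adjusted p of 1.12e-14, 9.04e-15 and 5.3e-10.

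At 120 hpi Chil3 had 18 and 17 counts in R35A cells, 2 and 2 in WT and 0 and 1 in R35K. The R35A libraries were the only ones above the floor at that time, at least 5.12-fold higher than WT (adjusted p = 6.12e-05) and at least 5.71-fold higher than R35K (adjusted p = 6.03e-06). They stayed below their own 0 hpi level by 1.43 on the log2 scale (SE 0.28, adjusted p = 1.13e-05). At 3 hpi R35K was called lower than WT and R35A, with 0 and 0 counts against 2 and 3, and 4 and 2, and both calls were lost without either R35K library (adjusted p between 0.0712 and 0.162). The granulocyte genes Ngp and S100a9, picked after their values were seen, had 151 to 170 and 246 to 331 counts at 0 hpi and 1 to 8 and 5 to 19 counts at 1 hpi, while Mmp8 had 10 to 43 counts at 0 hpi and 1170 to 5542 at 1 hpi. Of the 12 granulocyte markers listed, 11 were tested in WT, and at 1 hpi 1 was higher and 9 were lower. Of all genes 10.7% were higher and 9.27% lower there. The sum of the 12 markers went from between 62.9 and 64.9 CPM at 0 hpi to between 77.8 and 79.4 at 1 hpi in WT. It went from between 49.6 and 51.4 to between 317.5 and 319.5 CPM in R35A. In R35K it went from between 52.6 and 56.0 to between 234.1 and 235.5 CPM, so that sum and single markers did not move together. The part of granulocytes in the loss of Chil3 was not tested. Summed markers of mast cells, basophils and eosinophils at 120 hpi were between 5.63 and 5.69 CPM in R35A, 0.442 and 0.573 in WT, and 4.51 and 5.20 in R35K. In each construct 6 of these 7 markers were at 3 counts or fewer in both libraries, so that the sums give little about these cells. Their part in the R35A counts of Chil3 at that time was not tested.

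Retnla encodes a small secreted protein that is a mark of interleukin-4 responses. It had 0 counts in every library but 5 of the 36. These were 1 WT library at 1 hpi with 1 count, 1 R35K library at 0 hpi with 1, 1 R35A library at 120 hpi with 8, and both R35K libraries at 120 hpi with 3 and 1. The 8 counts stood in 1 library, and the other R35A library at 120 hpi had 0. Retnla was not tested, and at these depths a count of 0 allows up to 3 counts, or between 1.3e-05% and 2.3e-05% of a library.

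Fpr1 and Fpr2 encode receptors for formylated peptides, through which phagocytes sense bacteria and damaged mitochondria. Fpr1 had 4 and 7 counts at 1 hpi in WT, 63 and 56 in R35A, and 62 and 66 in R35K. At 18 hpi it had 0.702 and 1.16 CPM in WT, 6.87 and 6.65 in R35A, and 7.86 and 7.21 in R35K, and at 120 hpi 25.6 and 25.4, 173.8 and 193.5, and 155.1 and 142.2. Every mutant library lay above every WT library from 1 hpi on. R35A exceeded WT 10.1-fold at 1 hpi (log2 3.25, SE 0.32, adjusted p = 9.66e-13) and 7.19-fold at 120 hpi (log2 2.86, SE 0.072, adjusted p = 2.07e-35). R35K exceeded WT 12.3-fold and 5.82-fold at the same times, with log2 2.54 (SE 0.072, adjusted p = 8.12e-35) at 120 hpi. Among the members above 3 counts in all constructs at 120 hpi, Fpr1 was thus the one with the widest separation of both mutants from WT. WT cells were first called at 18 hpi (log2 1.27, SE 0.44, adjusted p = 0.0108), a call lost without the first WT library at 0 hpi (adjusted p = 0.148) or the second at 18 hpi (adjusted p = 0.213).

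Fpr2 had at most 3 counts in any library at 0 hpi. In WT it had 7 and 3 counts at 1 hpi, 9 and 6 at 3 hpi, 9 and 9 at 6 hpi, 14 and 25 at 18 hpi, and 964 and 969 at 120 hpi. In R35A it had 154 and 140, 195 and 167, 157 and 224, 229 and 307, and 871 and 1114 counts, and in R35K 134 and 152, 132 and 205, 229 and 254, 299 and 237, and 937 and 967. The mutants lay above WT at every time from 1 to 18 hpi. At 120 hpi all 3 constructs were close together, at 88.9 ± 5.20 CPM in WT, 79.4 ± 7.20 in R35A and 78.4 ± 0.216 in R35K (SD, n = 2).

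R35A exceeded WT 26.3-fold in Fpr2 at 1 hpi (log2 4.69, SE 0.28, adjusted p = 2e-20) and 13-fold at 18 hpi (log2 3.67, SE 0.18, adjusted p = 1.53e-23). R35K exceeded WT 28.8-fold at 1 hpi (log2 4.86, SE 0.27, adjusted p = 1.35e-22) and 14-fold at 18 hpi. At 120 hpi the differences were -0.15 (SE 0.069) and -0.18 (SE 0.065) on the log2 scale and were not called. At 1 hpi the mutants stood at 10.5% (R35A) and 11.6% (R35K) of their 120 hpi level and WT at 0.355%. Fpr2 was not called between R35K and R35A at any of the 6 times. From 1 hpi on the largest of these differences was 0.52 at 6 hpi (SE 0.11, adjusted p = 6.68e-05), under the 1.5-fold minimum, and at 0 hpi both mutants were at 3 counts or fewer.

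**Figure D2:**
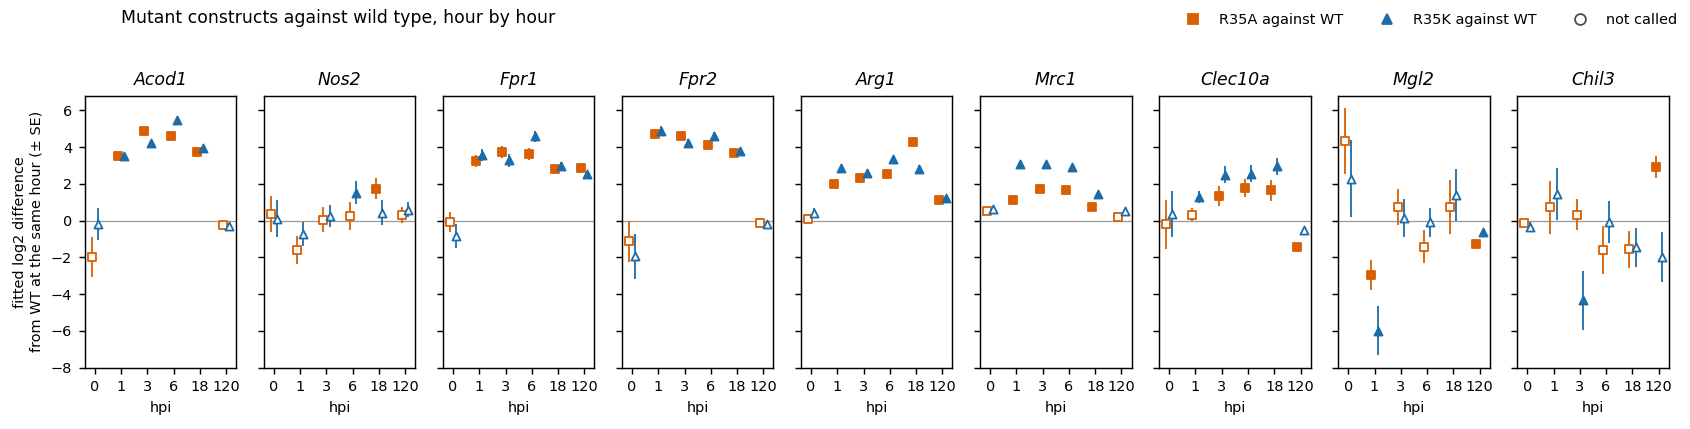
Fitted log2 difference from WT at the same hour for R35A and R35K, 1 panel for each of the 9 tested genes, with bars of 1 SE, filled points for called differences and open points for the others. Acod1 and Fpr2 return to about 0 at 120 hpi, Fpr1 stays at 2.86 and 2.54, and Clec10a and Mgl2 are below 0 in R35A at 120 hpi.

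Counting calls over the 9 tested members gave the overall course. In WT cells 4 rose and 1 fell at 1 hpi, where 10.7% of all 16988 genes tested were called higher and 9.27% lower. With these 2 shares of all genes in parentheses throughout, the counts in WT were 3 higher and 1 lower at 3 hpi (12% and 11.5%), 4 and 1 at 6 hpi (15.1% and 14.7%), 4 and 1 at 18 hpi (23.9% and 23.2%), and 8 and 1 at 120 hpi (23.1% and 40.2%). The count in WT thus stayed at 3 or 4 higher until the last time, but the members changed. Mrc1 and Acod1 were called higher at each time, joined by Clec10a and Mgl2 at 1 hpi and Fpr2 at 3 hpi. Mgl2 and Fpr2 joined them at 6 hpi, and Fpr1 and Fpr2 at 18 hpi. The calls of Fpr2 at 3 and 6 hpi, Mgl2 at 6 hpi and Fpr1 at 18 hpi were lost on leaving out 1 library. That of Fpr2 at 3 hpi was also lost without a count filter and by DESeq2. R35A cells had 6 higher and 1 lower at 1 hpi (18.3% and 18.9%), at 3 hpi (17.9% and 19%) and at 6 hpi (18.5% and 19.2%), 7 and 1 at 18 hpi (21% and 21.6%), and 8 and 1 at 120 hpi (24.2% and 39%). R35K cells, tested over 16434 genes, had 6 and 1 at 1 hpi (15.5% and 17.4%) and at 3 hpi (15.9% and 16.8%), 7 and 1 at 6 hpi (16.3% and 17.8%), 6 and 1 at 18 hpi (18.4% and 20.5%), and 8 and 1 at 120 hpi (25.4% and 38.5%). The member that fell was Chil3 in each case.

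The median log2 change of the members from 0 hpi was 1.58 in WT, 3.19 in R35A and 4.17 in R35K at 1 hpi, where the medians of all genes were -0.01, -0.01 and -0.04. At 120 hpi the members' medians were 7.33, 8.86 and 9.31, against -0.36, -0.31 and -0.28 over all genes. These medians hold genes whose 0 hpi level was at the floor, so that their size depends on the prior count. From 18 to 120 hpi 8 members rose in WT (27.5% and 33%), and 7 rose and 1, Acod1, fell in R35A (24.5% and 29.4%) and in R35K (24.7% and 28.5%). From 1 to 18 hpi the counts were 3 higher and 3 lower in WT (9.83% and 15.4%), 5 and 1 in R35A (1.94% and 3.68%), and 3 and 2 in R35K (3.15% and 6.12%).

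Between constructs, no member was called at 0 hpi. In edgeR's test 0 of 9 members passed in R35A against WT (0% and 0%), where 261 genes of all passed at an unadjusted p of 0.05 and 1 passed by DESeq2, in R35K against WT (0% and 0%), with 220 and 0, and in R35K against R35A (0.00579% and 0%), with 227 and 1. R35A exceeded WT in 5 members and was below it in 1 at 1 hpi (8.51% and 10.8%), and was above it in 6 at 3 hpi (7.95% and 9.04%), 6 at 6 hpi (6.2% and 7.52%) and 7 at 18 hpi (6.9% and 3.17%). At 120 hpi it was above WT in 3 (Arg1, Fpr1 and Chil3) and below in 2 (Clec10a and Mgl2), against 12.4% and 6.38% of all genes. The excess in R35A was therefore seen at every time from 1 to 18 hpi and was mixed at 120 hpi. Clec10a, counted at 3 and 6 hpi, had 2 and 7 and then 1 and 7 counts in WT. Without the first WT library its log2 difference went from 1.32 to 0.76 at 3 hpi and from 1.77 to 1.03 at 6 hpi. The call at 3 hpi was also lost without a count filter (adjusted p = 0.0724). R35K exceeded WT in 6 members and was below in 1 at 1 hpi (9.24% and 5.99%) and at 3 hpi (8.24% and 4.76%), and was above it in 7 at 6 hpi (9.62% and 5.29%) and 6 at 18 hpi (10.5% and 4.78%). At 120 hpi it was above WT in 2 (Arg1 and Fpr1) and below in 1 (Mgl2), against 9.87% and 3.97% of all genes. Both sets of comparisons use the same WT libraries.

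The members also differed between the 2 mutants. R35K was above R35A in 3 members at 1 hpi, namely Mrc1, Arg1 and Clec10a (5.97% and 2.52%). It was above in 2 and below in 2 at 3 hpi (3.58% and 1.46%), above in 4 at 6 hpi (7.22% and 1.96%), above in 2 and below in 2 at 18 hpi (3.65% and 2.12%), and above in 2 and below in 1 at 120 hpi (1.4% and 1.45%). Mrc1 was called at each time from 1 to 18 hpi, always with R35K higher, and Fpr2 at none. The Clec10a difference at 1 hpi was small (log2 0.905) and was not called with a 2-fold minimum. Without the second R35A library it was 0.57, under 1.5-fold.

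The change from 0 hpi was itself compared between each mutant and WT. It was larger in R35A in 4 members and smaller in 1 at 1 hpi (5.29% and 8.74%), larger in 5 at 3 hpi (5.53% and 7.43%), larger in 5 and smaller in 1 at 6 hpi (4.26% and 5.99%), larger in 4 at 18 hpi (5.47% and 2.89%), and larger in 3 and smaller in 1 at 120 hpi (9.85% and 4.63%). In R35K it was larger in 5 and smaller in 1 at 1 hpi (6.84% and 5.08%), larger in 5 at 3 hpi (6.14% and 3.87%), 6 hpi (7.66% and 4.53%) and 18 hpi (8.91% and 4.42%), and larger in 2 at 120 hpi (7.51% and 2.63%). The member with the smaller change was Mgl2. Over the 5 times, 24 of these differences were called for R35A and 23 for R35K, and without the second WT library at 0 hpi 16 and 15 were.

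Per kilobase of exon, the order of the members in WT at 120 hpi was Mrc1 (422.0 ± 10.9 CPM per kilobase, SD, n = 2), Clec10a (121.8 ± 0.940), Fpr2 (68.6 ± 4.01), Mgl2 (29.0 ± 0.642), Fpr1 (19.3 ± 0.120), Arg1 (18.9 ± 0.332), Acod1 (9.87 ± 0.417), Nos2 (0.270 ± 0.0146) and Chil3 (0.113 ± 0.00618), with Retnla at 0. Fpr1 and Arg1 were nearer to each other than the sum of their SDs, and the other neighbours were farther apart. In R35A the second place went to Fpr1 (138.7 ± 10.5), followed by Fpr2 (61.3 ± 5.55), Clec10a (44.3 ± 0.529) and Arg1 (40.5 ± 2.32). In R35K it also went to Fpr1 (112.3 ± 6.90), followed by Clec10a (85.3 ± 4.10), Fpr2 (60.5 ± 0.166) and Arg1 (44.9 ± 0.329). Mrc1 led in every construct, and Mgl2 and Acod1 came next below Arg1 in both mutants, at 11.8 ± 1.09 and 8.32 ± 0.0441 in R35A and 18.7 ± 0.0237 and 8.15 ± 1.08 in R35K. Nos2, Chil3 and Retnla were under 1 CPM per kilobase in every construct, and Retnla could not be placed among them in the mutants because of its spread (0.506 ± 0.716 in R35A and 0.277 ± 0.20 in R35K).

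**Figure D3:**
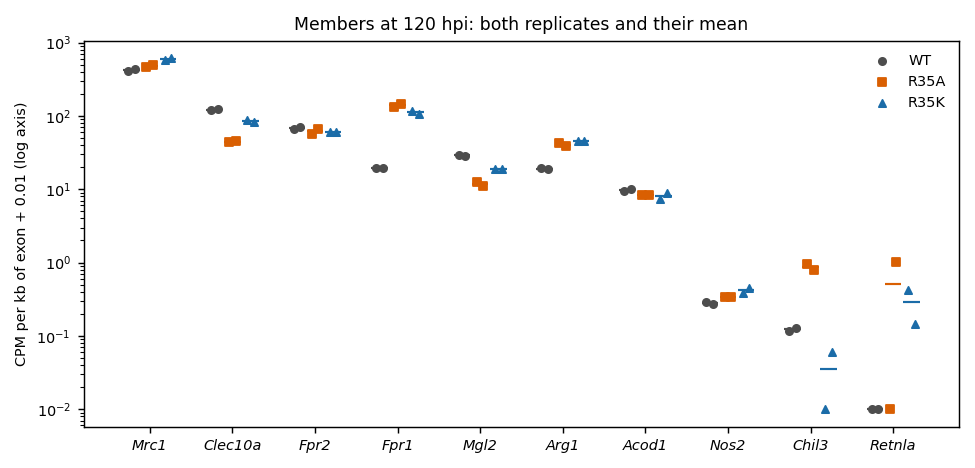
Levels of the 10 genes at 120 hpi in CPM per kilobase of exon with 0.01 added, on a log axis, with both libraries of each construct as points and the mean as a bar. Mrc1 is highest in all constructs and Nos2, Chil3 and Retnla are lowest, and Fpr1 and Arg1 stand higher in the mutants while Clec10a and Mgl2 stand lower.

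Other genes of the same programs were followed as lists. Of 22 other genes of classical activation 18 were tested, and in WT cells 16 were higher and 1 lower at 120 hpi, where 23.1% of all genes were higher and 40.2% lower, with a median log2 change of 3.77. The largest changes upward were those of Il1b (log2 11.05), an inflammatory cytokine, of Marco (8.24), a scavenger receptor, and of Cd86 (7.26), a costimulatory ligand, and the one downward change was that of Il12a (-6.01), a subunit of interleukin-12. Of 20 other genes of alternative activation 18 were tested, and 16 were higher and 1 lower at 120 hpi in WT, with a median of 4.81. The changes of Folr2 (log2 11.32), a folate receptor, Cd83 (9.46) and Cd163 (9.11), a hemoglobin scavenger receptor, were the largest upward, and Socs2 (-2.57), a cytokine signalling inhibitor, was the one that fell. Both lists had thus risen in WT cells by 120 hpi, with the median over all genes at -0.36. Their summed levels in WT took different courses before that. The classical sum was between 684.0 and 705.5 CPM at 0 hpi and between 1576.6 and 1742.8 from 1 to 18 hpi. For the alternative list the sum was between 460.2 and 468.2 CPM at 0 hpi and between 385.8 and 522.0 from 1 to 18 hpi. In the mutants the alternative sum was higher at 1 hpi than at 0 hpi. It went from between 460.2 and 469.1 to between 690.3 and 695.3 CPM in R35A. In R35K it went from between 452.3 and 466.4 to between 946.3 and 946.6 CPM. Feeder markers in WT also rose, from between 1237.1 and 1260.3 to between 2646.2 and 2660.1 CPM at 1 hpi. Their part in these sums was not tested.

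Against WT, R35A cells had 10 of the 18 other classical genes higher and 3 lower at 1 hpi (median log2 difference 0.77), where 8.51% of all genes were higher and 10.8% lower. R35K cells had 10 higher and 1 lower (median 0.87), where 9.24% of all genes were higher and 5.99% lower. Of the 18 other alternative genes, 6 were higher and 3 lower in R35A (median 0.49), and 10 were higher and 2 lower in R35K (median 1.03). At 1 hpi Il1b (log2 1.62 in R35A and 0.99 in R35K), Cd86 (1.53 and 1.96) and Cd83 (1.57 and 1.81) were higher in both mutants. At 120 hpi Il1b (-0.92 and -0.64) was below WT in both, and Marco (2.95 and 1.67) and Folr2 (0.79 and 0.84) were above WT in both. At 120 hpi 3 of the alternative genes were higher and 8 lower in R35A (median -0.33), and 1 was higher and 6 were lower in R35K (median -0.42). Of the classical genes 2 were higher and 4 lower in R35A, and 2 were higher and 3 lower in R35K (both medians -0.13). Of all genes at 120 hpi, 12.4% were higher and 6.38% lower in R35A, and 9.87% were higher and 3.97% lower in R35K. In both lists and both mutants, more genes were above WT than below it at 1 hpi. At 120 hpi more of the alternative genes were below WT than above it in both mutants. The classical counts at 120 hpi, 2 higher against 4 or 3 lower, were too close to set a direction.

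Of 10 genes of arginine metabolism, 3 rose and 3 fell in WT at 120 hpi (median -0.18), where 23.1% of all genes were higher and 40.2% lower. Arg2, the mitochondrial arginase (log2 7.62), Gch1, which makes the cofactor of nitric oxide synthase (3.48), and Asl (1.1) rose, while Ass1, which with Asl remakes arginine from citrulline (-2.42), and Slc7a2, an arginine transporter (-1.92), were the largest falls. Receptors and signalling genes of interleukin-4 and interleukin-13 had 9 of 10 higher and 0 lower at 120 hpi in WT, led by Il13ra1 (log2 3.51), Il2rg (2.36) and Tyk2 (2.14). Those of LPS and interferon-gamma had 8 of 12 higher and 1 lower, with Cd14 (8.74), Ifngr1 (3.63) and Tlr4 (2.71) upward and Traf6 (-0.94) downward. At 1 hpi in WT these lists had 2 higher and 1 lower (interleukin-4 and interleukin-13) and 1 higher and 1 lower (LPS and interferon-gamma), where 10.7% of all genes were higher and 9.27% lower.

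Relatives of the members were mostly silent. Of 20 paralogs listed, 17 were in the tables and 7 were tested, of which 3 rose and 4 fell in WT at 120 hpi (23.1% and 40.2% of all genes). Clec4a2 (log2 7.87), Arg2 and Asgr2 (6.49), the last an asialoglycoprotein receptor subunit related to Clec10a, rose, and Retnlg (-7.63), a relative of Retnla, and Asgr1 (-3.56) fell the most.

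**Figure D4:**
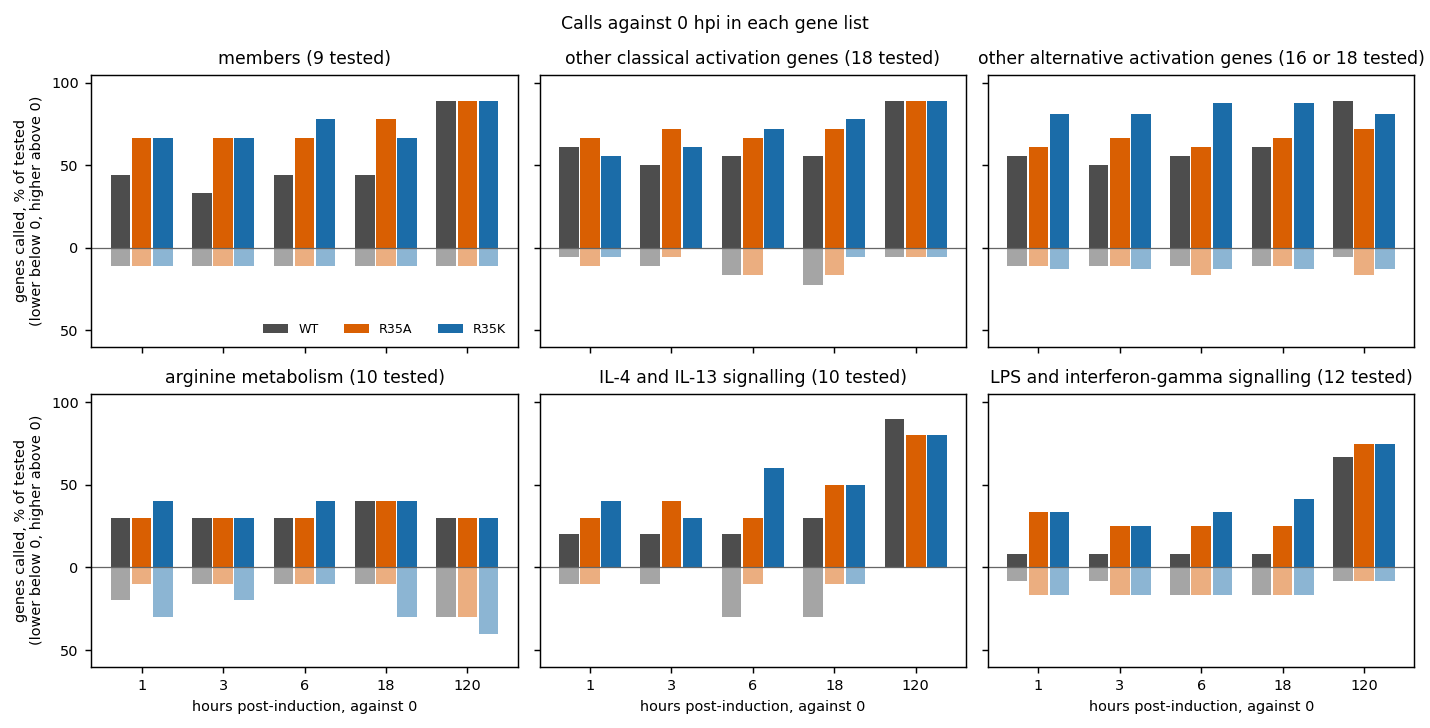
Percent of the tested genes of each list called higher (above 0) or lower (below 0) against 0 hpi, by hours post-induction, in WT, R35A and R35K, for the 9 members and the other lists. In WT at 120 hpi 16 of 18 genes were called higher in both the classical and the alternative list.

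Across the 18 groups the patterns of the members were alike to different degrees, by the Pearson correlation of group means of log2(CPM + 0.1). The groups share the time axis, and the values are a description. Mrc1 and Clec10a were most alike (r = 0.973), followed by Arg1 and Fpr1 (0.967) and by Fpr1 and Fpr2 (0.933), whereas the 2 classical enzymes Acod1 and Nos2 had r = 0.499 and Acod1 and Mgl2 had r = 0.182. Over all genes tested, the pattern of Acod1 was most like those of Fnip2 (0.987), S1pr2 (0.986) and Riok3 (0.985), and that of Fpr2 most like those of Dubr (0.994), Litaf (0.992) and Rab20 (0.990). Arg1 was most like Tmem268 (0.982), Mmp9 (0.979) and Fabp5 (0.978), and Fpr1 most like Fam213b (0.988), Lrp12 (0.984) and Acp2 (0.983). Mrc1 went with Dhrs3 (0.991), Fcgrt (0.990) and AC101945.2 (0.989), Clec10a with Prkx (0.996), Mob3c (0.991) and Ripk1 (0.991), and Mgl2 with Cass4 (0.982), Ogfrl1 (0.981) and Trem1 (0.979). For the low genes the likeness was smaller, with Abhd16a (0.918) and Spaca9 (0.911) for Nos2 and Mrpl12 (0.953), Klhdc4 (0.941) and Prrc2a (0.938) for Chil3.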

How the data were processed

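RNA-seq libraries of poly(A) RNA (stranded, single-end reads) were aligned to mm10 and counted per gene with STAR 2.5.0a and normalized with DESeq2 1.14.1, per the labels, the submitters' processing notes and the study's methods. The annotation release and the strand column that was counted are not given in the sources used here. The authors deposited raw read counts for 40354 genes and log2 normalized values for 19067 genes, in 1 pair of tables for WT and R35A and 1 for R35K. The log2 values could be recomputed from the counts in 100% of cases (tolerance 1e-06) and hold 9 of the 10 members, without Retnla.

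Tests were run on the counts with edgeR 4.0.16 (R 4.3.3) after its filterByExpr filter and TMM scaling, in a quasi-likelihood model with 1 term per group. Changes within WT and R35A and their comparison used 24 libraries (16988 genes, biological coefficient of variation 3.17%), changes within R35K used 12 (16434 genes, 3.49%), and comparisons of R35K with WT or R35A used all 36 (17277 genes, 3.27%). The SE of a log2 difference is its size over the root of the F statistic. All samples were grouped by their labels, and no column was left unused. Levels and lists were computed with Python 3.11.15 and pandas 2.3.3. The members and gene lists were chosen with earlier results of these data known, so that no count over a list is independent evidence. The 10 members are always named, and of each other list up to 3 genes with the largest called change upward and 2 downward at 120 against 0 hpi in WT. For similar patterns, the 3 genes with the highest correlation were named, except that 1 gene is not reported here. On simulated counts (15845 genes), 93 tested genes were changed 2-fold and 96 were changed 4-fold, in R35A at 1 hpi only. The test of R35A at 1 against 0 hpi recovered 88.2% of the 2-fold and 94.8% of the 4-fold changes, with 5 false calls. For the R35A change to 1 hpi minus that of WT, 77.4% and 86.5% were recovered, with 4 false calls. Far fewer genes were changed in the simulation than were called in the data.

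Gene positions and lengths came from GENCODE vM21 (GRCm38) and promoters from RefSeq (GRCm38.p6). Alternatives were DESeq2 1.42.0, its size factors in edgeR, no count filter, a filter of 10 counts, an unadjusted p, a 2-fold minimum, the compared groups alone, a replicate block, and each library left out in turn.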

Additional observations from a re-analysis of the deposited data

Results flagged for a closer look

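Changes from 0 hpi that differed between a mutant and WT, by the interaction term of edgeR's quasi-likelihood test with Benjamini-Hochberg adjustment, are given here as the log2 change in the mutant minus that in WT. For Arg1 the difference was 1.90, 2.22, 2.46, 4.19 and 1.02 in R35A and 2.48, 2.19, 2.97, 2.42 and 0.86 in R35K at 1, 3, 6, 18 and then 120 hpi. For Fpr1 it was 3.36, 3.82, 3.70, 2.92 and 2.96 in R35A and 4.41, 4.11, 5.42, 3.83 and 3.38 in R35K at the same hours. Neither gene was at 3 counts or fewer in both libraries of any WT group, and they were the ones called at all 5 times in both mutants. Fpr1 was still close to that floor, with 4 and 7 counts in WT at 0 hpi, 3 and 6 in WT at 6 hpi, and 5 and 2 in R35K at 0 hpi. The Arg1 call at 120 hpi was lost in R35A without the first WT library at 0 hpi (adjusted p = 0.0658), and in R35K without any 1 of 3 libraries (adjusted p between 0.12 and 0.167) or without a count filter (adjusted p = 0.0525). The Fpr1 call at 18 hpi in R35A was lost without the second WT library at 0 hpi (adjusted p = 0.0729). For Mrc1 it was 1.2 at 3 hpi and 1.12 at 6 hpi in R35A, and 2.47, 2.48, 2.32 and 0.85 at 1, 3, 6 and 18 hpi in R35K. Without that same WT library the Mrc1 calls at 3 and 6 hpi in R35A (adjusted p = 0.0823 and 0.139) and at 18 hpi in R35K (adjusted p = 0.379) were lost, the last also without the first R35K library at 0 hpi (adjusted p = 0.112).

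For genes at 3 counts or fewer at 0 hpi the size of the difference depends on the prior count. For Acod1 it was 5.47, 6.84, 6.58 and 5.69 in R35A and 3.71, 4.42, 5.68 and 4.12 in R35K at 1, 3, 6 and 18 hpi. The R35K call of Acod1 at 1 hpi was lost without either WT library at 0 hpi (adjusted p = 0.059 and 0.0626). For Fpr2 it was 5.82, 5.76, 5.23 and 4.80 in R35A and 6.82, 6.15, 6.58 and 5.74 in R35K. Without the second WT library at 0 hpi, which had 3 counts of Fpr2 where the first had 1, none of these 8 differences of Fpr2 was called, with adjusted p between 0.0739 and 0.25. For Mgl2 it was -7.32, -5.75 and -5.63 at 1, 6 and 120 hpi in R35A and -8.27 at 1 hpi in R35K, all against a WT group with 0 counts before induction. The R35K call was lost without any 1 of 7 libraries (adjusted p between 0.0532 and 1) or without a count filter (adjusted p = 0.0614), the R35A call at 6 hpi without any 1 of 5 libraries (adjusted p between 0.0889 and 0.272), and that at 120 hpi without the first R35A library at 0 hpi (adjusted p = 0.0603). For Chil3 it was 3.04 at 120 hpi in R35A, with 18 and 17 counts against 2 and 2 in WT.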

How the results depend on the processing

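No called member result changed sign under any setting in which it was tested, and results that were not called were not checked for sign. Of 270 called member results, 2 lost their call with DESeq2's size factors, 6 without a count filter, 1 with the filter of 10 counts, 0 with an unadjusted p, 19 with the 2-fold minimum, 1 of 252 with the compared groups alone, 3 of 265 by DESeq2's Wald test, and 38 on leaving out at least 1 library. With the 2-fold minimum the calls over all times fell from 18 to 9 for R35K against R35A and from 17 to 11 for the change from 1 to 18 hpi. Leaving out 1 library in turn gave 26 to 29 calls for the change from 0 hpi in WT, 38 to 39 in R35A and 37 to 39 in R35K, 28 to 31 for R35A and 29 to 30 for R35K against WT, 16 to 21 for R35K against R35A, 24 for 18 to 120 hpi, and 15 to 18 for 1 to 18 hpi. The change in R35A minus that in WT gave 16 to 25 and that in R35K minus WT 15 to 23, the lowest count in each case without the second WT library at 0 hpi. The fall of Arg1 from 1 to 18 hpi in WT (log2 -0.73, adjusted p = 0.0498) was lost under 6 settings other than leaving out a library, with adjusted p from 0.0498, where the fold was too small, to 0.125, and without any 1 of the 4 libraries compared (adjusted p from 0.0604 to 0.248). DESeq2's size factors moved the median log2 change of all genes by 0.158 in WT, 0.129 in R35A and 0.136 in R35K at 120 hpi. At 18 against 1 hpi in WT they turned 1670 higher and 2612 lower genes into 2431 and 2196, and for R35K against WT at 18 hpi 1822 and 826 into 1482 and 1213. A replicate block left all these counts as they were (28, 38 and 38 for the changes from 0 hpi in WT, R35A and R35K, and 30 for each mutant against WT). Over 10471 genes the replicate differences of 153 pairs of groups had a median correlation of 0.001, and 11 pairs were above 0.1. The replicate spread was between 1.07 and 2.31 times counting noise. Such differences hold much counting noise, so this check cannot tell whether the replicate numbers pair the samples. Depth limits Nos2, Chil3 and Retnla, and Mgl2 before 120 hpi, where single counts set the values.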
